A study of Mus musculus with 8 samples.

Results

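The genes described here are 40 solute carrier genes for sugars, amino acids, peptides, vitamins, monocarboxylates and nucleosides. They were listed by symbol, and all 40 were found among the 23393 gene symbols of an expression table of mouse embryonic gut epithelium at E16.5, late in gestation. Poly(A) RNA was sequenced from 8 libraries, 2 from each of 4 tissues: the colon, the proximal part of the small intestine (called the intestine below), the hindstomach, which is the glandular part of the rodent stomach, and the forestomach, which is its squamous part. Per the labels' protocols the E16.5 epithelium of all 4 tissues came from untreated embryos with the ShhCre and R26YFP/+ alleles, a Cre driven from Shh and a fluorescent reporter that Cre switches on. Forestomach epithelium was peeled off by hand after Dispase, and the epithelium of the other 3 tissues was shaken off in EDTA, which was more concentrated for the hindstomach, so that tissue and isolation cannot be told apart. The values are FPKM, fragment counts scaled by transcript length and by the mapped fragments of the library, and libraries are named by tissue and replicate number. Whether the 2 libraries of a tissue stem from different embryos is not said in the labels, and the p-values therefore reflect only how far these libraries spread, technical spread included. The pairwise comparisons below share libraries with each other.

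Solute carriers are membrane proteins that move small molecules into and out of cells. In the mature small intestine, absorptive enterocytes take nutrients up across the apical brush border with carriers driven by sodium or protons, and release them to the blood side through basolateral carriers. Some amino acid carriers work as a heavy and a light chain joined together: Slc3a1 with the light chain Slc7a9 at the apical face, and Slc3a2 with Slc7a7 or Slc7a8 at the basolateral face. Other family members, such as Slc2a1, Slc7a5 and Slc38a2, feed the cell itself and are used in many tissues.

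The library labelled forestomach replicate 1 stood apart from the rest in how much of its summed FPKM lay in a few genes. Its 10 most abundant genes held 52.5% of its summed FPKM, against 6.27% to 17.4% in the other 7 libraries. The 2 forestomach libraries had a Pearson r of 0.713 on log2(FPKM + 1) over 12894 genes, which are not independent replicates. With the hindstomach libraries r was 0.778 and 0.8015 for replicate 1, and 0.733 and 0.717 for replicate 2. With the colon and intestine libraries it was 0.627 to 0.712 for replicate 1 and 0.598 to 0.653 for replicate 2. By this measure replicate 2 lay further from the other tissues. The gastric gland markers, 7 genes with the zymogen Pgc among them, summed to 164553 FPKM in forestomach replicate 1, against 2354 in forestomach replicate 2. The squamous markers, 6 keratin and related genes, summed to 1042 FPKM in replicate 1 against 33525 in replicate 2. Colon replicate 1 was closer to intestine replicate 1 (r = 0.972) than to colon replicate 2 (0.959). Tests of the 40 genes are therefore given from a fit of all 8 libraries (the 8-library fit) and from a fit without forestomach replicate 1 (the 7-library fit), in which the forestomach is 1 library assumed to vary like the others.

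The transporter genes were most abundant in the intestine. Of the 40 genes, 24 had their highest mean in the intestine, 10 in the colon, 1 in the hindstomach and 5 in the forestomach, as the heatmap of the 40 genes shows. In both libraries of a tissue, 36 genes reached 1 FPKM in the colon, 34 in the intestine, 28 in the hindstomach and 18 in the forestomach. The 40 genes together held 0.358% and 0.224% of summed FPKM in the colon, 0.377% and 0.443% in the intestine, 0.121% and 0.135% in the hindstomach, and 0.0443% and 0.109% in the forestomach. The heavy chain gene Slc3a1 reached the highest level of any of the 40, 209 FPKM in intestine replicate 2, followed in intestine means by the glucose carrier gene Slc5a1 (142 FPKM) and the light chain gene Slc7a8 (138 FPKM). At least 1 FPKM in at least 2 libraries, the condition for a test, was met by 37 genes, of which Slc5a8 and Slc1a1 met it in the colon alone. Slc23a1, Slc28a1, Slc15a2 and Slc2a9 met it in the colon and intestine alone. Their tests against the stomach tissues were thus partly set by the filter. Slc2a3, Slc7a11 and Slc28a3 each reached 1 FPKM in 1 library and were not tested. Values of exactly 0 were listed for 4 of the genes, all in the forestomach. Such a value may be a failed estimate, since Eno1, a glycolytic gene used by most cells, was listed at no more than 0.0124 FPKM in any library.

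**Figure D1:**
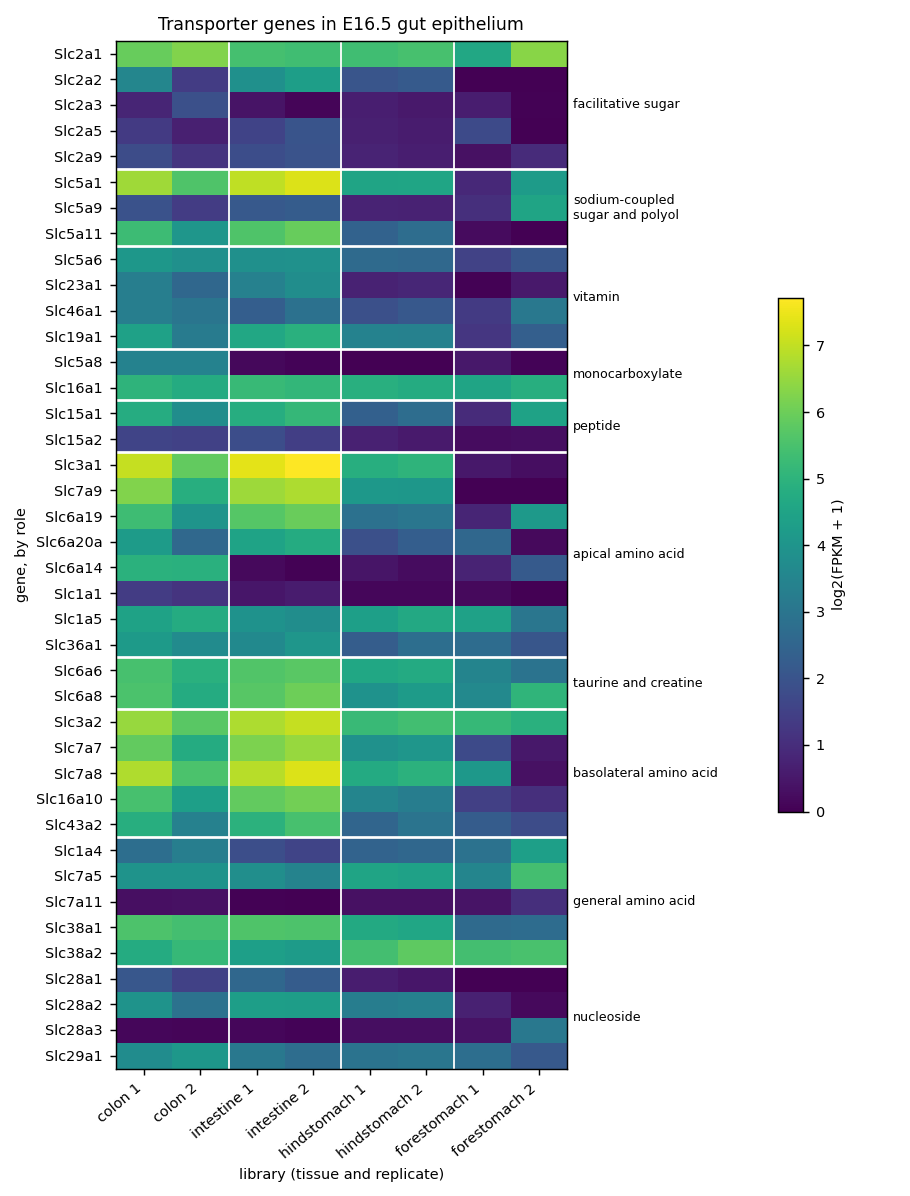
Heatmap of the 40 transporter genes (rows, grouped by role) in the 8 libraries (columns, by tissue and replicate), with colour for log2(FPKM + 1). The brightest cells lie in the intestine columns, where Slc3a1 reached 209 FPKM in replicate 2, and Slc5a8 and Slc6a14 are bright in the colon columns.

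Between the intestine and the hindstomach, the contrast of small intestine with glandular stomach, the transporter genes that passed the test were mostly higher in the intestine. Genes were called at an adjusted p under 0.05 (limma on log2(FPKM + 1), adjusted over all genes tested) and at least a 2-fold change. Of 37 tested genes, 9 were higher and 1 was lower in the intestine in the 8-library fit, where 2.55% and 2.47% of all 12894 genes tested were higher and lower. In the 7-library fit 22 were higher and 1 was lower, against 7.42% and 9.96% of 12502 genes. In either direction 10 genes were called in the 8-library fit, against 5.03% of all genes. Both fits hold the same intestine and hindstomach libraries and so the same fold changes here. Calls shared by the fits are therefore no independent check. The median log2 fold change of the 37 genes was 1.32, against -0.25 over all genes tested. Of all 40 genes, 30 had both intestine libraries above both hindstomach libraries, 8 had both below, and 2 overlapped. Of the 37 tested, 30 lay wholly above and 5 wholly below, against 24.3% and 53.5% of all 12894 genes. The calls rest on every library of the pair of tissues: leaving out any 1 intestine or hindstomach library left 0 transporter genes called by limma, with 15 to 18 at an unadjusted p under 0.05, and 23 met that unadjusted threshold with all 8 libraries. Leaving out either forestomach library gave 23 called genes, and with no filter on low values the 8-library fit called 1, Slc23a1, while the other 9 had adjusted p-values from 0.0540 to 0.111. In bulk samples fewer cells of a type and less RNA per cell cannot be told apart. The 6 pancreatic acinar markers summed to 3453 and 914 FPKM in the hindstomach and 2244 and 376 in the intestine. They summed to 1413 and 425 FPKM in the colon and 6.12 and 0.182 in the forestomach. The 5 hepatocyte markers summed to 427 and 222 FPKM in the hindstomach and 289 and 138 in the intestine. In the colon they summed to 148 and 162 FPKM, and in the forestomach to 141 and 2.51. Their part in the transporter levels was not tested.

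Between the colon and the intestine, 2 of the 37 genes, Slc5a8 and Slc6a14, were higher in the colon in the 8-library fit, where 0.38% of all genes tested were higher, and 0 were lower, against 0% of all genes. In the 7-library fit Slc1a4 was added, for 3 higher genes against 2.5% of all genes, and 0 were again lower, against 0.04%. The fit of all 8 libraries had 6 genes higher and 6 lower at an unadjusted p under 0.05, and the 7-library fit had 8 and 13. The median log2 fold change was -0.62 over the 37 genes and 0.23 over all genes tested, and 23 of the 40 genes had both colon libraries below both intestine libraries, 12 had both above and 5 overlapped. Of the 37 tested, 10 lay wholly above and 23 wholly below in the colon, against 57.6% and 18.9% of all genes, so that separation of 2 libraries from 2 was common in the whole table. Without any 1 of the colon, intestine or hindstomach libraries limma called 0 of these genes, with 1 to 16 at an unadjusted p under 0.05, and without either forestomach library it called 3.

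Against the forestomach, the intestine had 21 transporter genes higher and 2 lower in the 8-library fit (11.3% and 5.78% of all genes), and 21 higher and 5 lower in the 7-library fit (16.6% and 11.3%). The fits shared 20 of the higher and both of the lower genes. In either direction 17.1% and 27.9% of all genes were called. The colon had 19 higher and 0 lower than the forestomach (9.2% and 2.41% of all genes), and 23 higher and 3 lower in the 7-library fit (19.1% and 6.44%). In either direction 11.6% and 25.6% of all genes were called, and limma gave 0 lower transporter genes at an unadjusted p under 0.05 in the 8-library fit too. The hindstomach had 8 higher and 0 lower than the forestomach (4.26% and 1.33%), with 1 lower at an unadjusted p under 0.05, and 10 higher and 5 lower in the 7-library fit (14.3% and 6.55%). In either direction 5.59% and 20.9% of all genes were called. Between the colon and the hindstomach 3 genes were higher and 0 lower in the colon (1.07% and 0.434%), and 11 were higher and 0 lower in the 7-library fit (4.49% and 3.1%), with 1 and 2 lower at an unadjusted p under 0.05 in the 8-library and 7-library fits. In either direction 1.5% and 7.59% of all genes were called. The median log2 fold changes of the 37 genes were 2.09 for the intestine, 1.98 for the colon and 0.51 for the hindstomach, each minus the forestomach, and 1.12 for the colon minus the hindstomach. Over all genes tested they were 0.11, 0.41, 0.39 and 0.02 in the same order, so the whole table was shifted upward against the forestomach, and by -0.03 to 0.05 after median-of-ratios scaling, when the transporter genes' medians were 2.15, 1.65, 0.33 and 1.04. Single libraries moved these counts: without intestine replicate 1 or 2 the intestine against the forestomach had 12 or 11 genes called, without colon replicate 1 the colon against the forestomach had 9, and without either hindstomach library the hindstomach against the forestomach had 1. That comparison had 3 without either intestine library and 15 or 14 without forestomach replicate 1 or 2. The colon against the hindstomach had 0 by limma without any 1 colon or hindstomach library (12 to 18 at an unadjusted p under 0.05), 2 without either intestine library and 11 without either forestomach library. In at least 1 comparison 27 of the 37 genes were called in the 8-library fit. The share of all genes called in at least 1 comparison was not counted, so this number describes the list alone.

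The apical cystine and dibasic amino acid carrier, made of the heavy chain rBAT (Slc3a1) and the light chain b0,+AT (Slc7a9), was abundant in the intestine and nearly missing from the forestomach. Slc3a1 (chr17:85028376-85064236, plus strand, GRCm38) stood at 129.6 and 57.1 FPKM in the colon, 168 and 209 in the intestine, 27.7 and 31.6 in the hindstomach, and 0.416 and 0.2099 in the forestomach. Slc7a9 (chr7:35448796-35466036, plus strand) stood at 74.7 and 27.6 FPKM in the colon, 94.7 and 108 in the intestine, 16.3 and 15.97 in the hindstomach, and 0.0132 and 0 in the forestomach. For both genes every intestine library lay above every colon library, every colon library above every hindstomach library, and the forestomach libraries were under 1 FPKM. Slc3a1 was higher in the intestine than in the hindstomach by 2.63 ± 0.38 on the log2(FPKM + 1) scale (SE; adjusted p = 0.0236 in the 8-library fit and 0.00794 in the 7-library fit). Slc7a9 was higher by 2.58 ± 0.43 (adjusted p = 0.0313 in the 8-library fit and 0.0123 in the 7-library fit). Against the forestomach, the hindstomach was higher in Slc3a1 by 4.55 ± 0.38 (adjusted p = 0.00382 in the 8-library fit and 0.00188 in the 7-library fit) and in Slc7a9 by 4.09 ± 0.43 (adjusted p = 0.00771 in the 8-library fit and 0.00429 in the 7-library fit). Colon minus intestine was -1.11 ± 0.38 for Slc3a1 and -1.13 ± 0.43 for Slc7a9, and neither passed.

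The promoter windows of these partner genes are shown because both chains are needed for the carrier and their levels had the same order over the tissues. The windows run from 250 bases before to 50 bases after the first RefSeq start listed for each gene (GRCm38.p6, plus strand; chr17:85028097-85028396 for Slc3a1 and chr7:35448842-35449141 for Slc7a9), written 5′ to 3′, and 32 of the 40 genes matched an entry. The RefSeq start of Slc7a9 lies downstream of the GENCODE start given above, so that this window lies inside the GENCODE gene. Capitals mark matches, on either strand, to 4 short motifs of transcription factors known from the gut. The motif searched for Cdx proteins, which act in intestine and colon, was TTTATG. For Gata proteins, which act in stomach and small intestine, the letters searched were AGATAA. For the nuclear receptor Hnf4 they were CAAAGTC. For the homeodomain protein Hnf1 the search used GTTAAT. No matches overlap in these windows.
Slc3a1: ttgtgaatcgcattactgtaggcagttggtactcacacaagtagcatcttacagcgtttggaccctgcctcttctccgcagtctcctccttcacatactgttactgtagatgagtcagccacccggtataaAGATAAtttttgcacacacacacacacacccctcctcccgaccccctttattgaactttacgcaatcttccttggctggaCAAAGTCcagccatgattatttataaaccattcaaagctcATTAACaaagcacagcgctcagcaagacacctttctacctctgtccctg
Slc7a9: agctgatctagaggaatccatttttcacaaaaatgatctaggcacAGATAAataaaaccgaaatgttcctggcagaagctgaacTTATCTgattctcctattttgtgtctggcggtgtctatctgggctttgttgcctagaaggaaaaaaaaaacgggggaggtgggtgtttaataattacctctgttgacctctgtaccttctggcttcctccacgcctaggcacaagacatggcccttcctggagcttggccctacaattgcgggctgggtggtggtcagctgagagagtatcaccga
The Slc3a1 window holds AGATAA from base -119 and CAAAGTC from base -39 relative to the start, and GTTAAT on the opposite strand from base 2. The Slc7a9 window holds AGATAA from base -205 and, on the opposite strand, from base -166. Over 27025 promoter windows of the same length, 12.1% hold the Cdx motif, 11.4% the Gata motif, 4.36% the Hnf4 motif and 7.2% the Hnf1 motif. Among the 32 transporter windows 1 holds the Cdx motif, 4 hold the Gata motif, 2 the Hnf4 motif and 5 the Hnf1 motif. A match describes letters only and says nothing of binding.

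**Figure D2:**
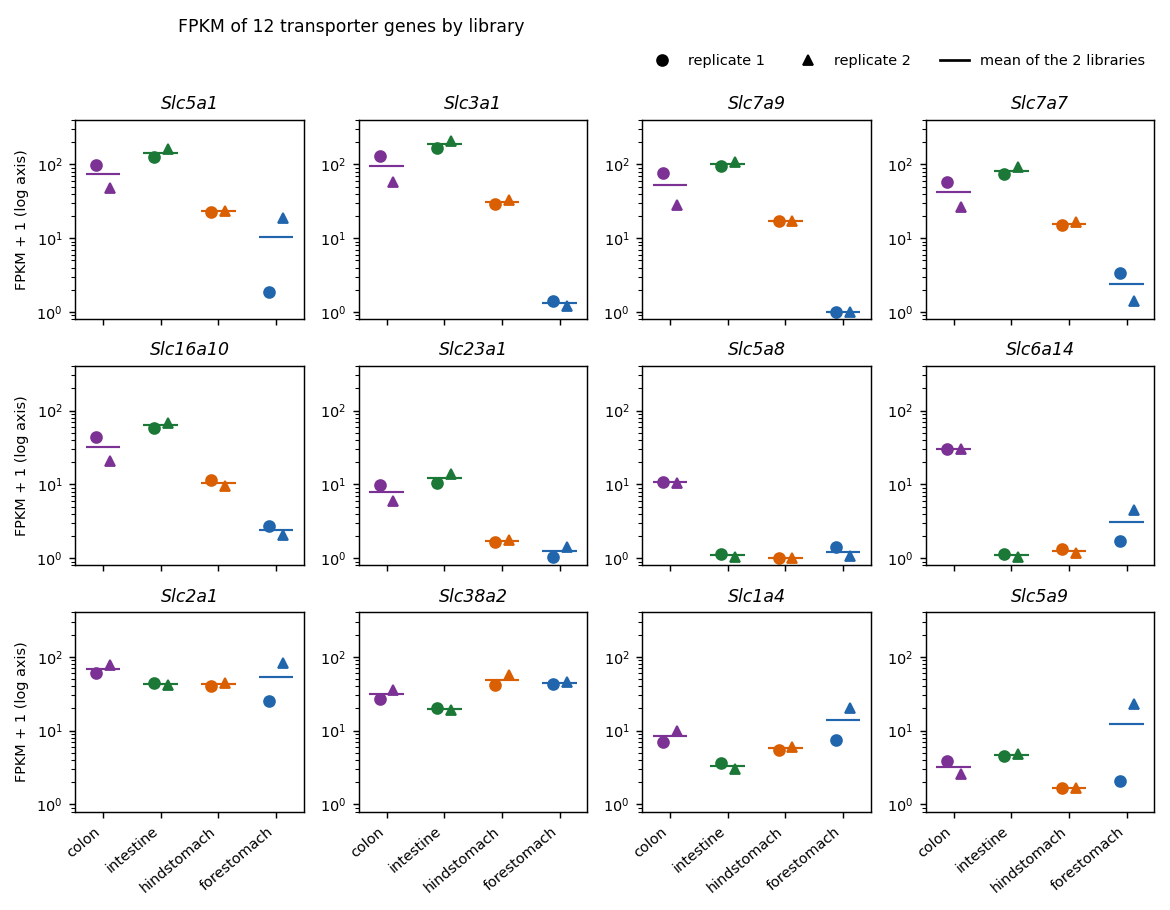
FPKM + 1 on a log axis for 12 transporter genes in the 4 tissues, with a circle for replicate 1, a triangle for replicate 2 and a line at the mean of the 2 libraries. Slc3a1 reached 209 FPKM in the intestine and 0.416 FPKM at most in the forestomach, Slc5a8 and Slc6a14 stood out in the colon, and the 2 forestomach libraries lay far apart for Slc5a1 and Slc5a9.

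Of the other apical amino acid carriers, the neutral amino acid carrier B0AT1 (Slc6a19) and the proline carrier SIT1 (Slc6a20a) were highest in the intestine. Slc6a19 stood at 39.3 and 14.98 FPKM in the colon, 50.5 and 61.2 in the intestine, 6.39 and 7.12 in the hindstomach, and 0.747 and 17.1 in the forestomach. Slc6a20a stood at 17.9 and 5.102 FPKM in the colon, 21.3 and 26.05 in the intestine, 2.7 and 3.92 in the hindstomach, and 4.99 and 0.151 in the forestomach. Both intestine libraries lay above both hindstomach libraries for these genes, but the forestomach pair split, with Slc6a19 high in replicate 2 and Slc6a20a high in replicate 1. Intestine minus hindstomach was 2.87 ± 1.05 for Slc6a19 and 2.53 ± 0.85 for Slc6a20a, and it passed in the 7-library fit (adjusted p = 0.00839 and 0.0208) and not in the 8-library fit (0.161 and 0.139). The proton-coupled amino acid carrier PAT1 (Slc36a1) stood at 17.6 and 12.2 FPKM in the colon, 11.7 and 15.6 in the intestine, 3.88 and 5.97 in the hindstomach, and 5.56 and 3.197 in the forestomach. Its colon and intestine values overlapped, and it was higher in both than in the forestomach, by 1.58 ± 0.34 for the colon (adjusted p = 0.0339 in the 8-library fit and 0.00914 in the 7-library fit) and by 1.47 ± 0.34 for the intestine (adjusted p = 0.0303 in the 8-library fit and 0.00881 in the 7-library fit). The glutamate carrier Slc1a1 was low, at 1.597 and 1.22 FPKM in the colon, 0.384 and 0.493 in the intestine, 0.1003 and 0.104 in the hindstomach, and 0.139 and 0.0174 in the forestomach. Its colon libraries lay above all others and were the only ones to reach 1 FPKM, so that it entered the test through the tissue where it is high. With that limit the colon was higher than the forestomach by 1.16 ± 0.201 (adjusted p = 0.0181 in the 8-library fit and 0.0104 in the 7-library fit). The glutamine carrier ASCT2 (Slc1a5) stood at 20.99 and 25.8 FPKM in the colon, 14.4 and 12.8 in the intestine, 19.7 and 24.2 in the hindstomach, and 20.5 and 7.09 in the forestomach. Its intestine libraries were below the colon and hindstomach libraries, without passing in either comparison, and its forestomach values were far apart. It was higher in the hindstomach than in the forestomach in the 7-library fit (1.497 ± 0.201, adjusted p = 0.00475), against 0.274 with all 8 libraries.

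The taurine carrier (Slc6a6) and the creatine carrier (Slc6a8) were broader. Slc6a6 stood at 43.3 and 29.05 FPKM in the colon, 48.7 and 52.8 in the intestine, 22.96 and 25.1 in the hindstomach, and 10.1 and 6.702 in the forestomach. It was higher than in the forestomach in the colon (1.98 ± 0.27, adjusted p = 0.00837 in the 8-library fit and 0.00208 in the 7-library fit), the intestine (2.48 ± 0.27, adjusted p = 0.00297 in the 8-library fit and 0.000869 in the 7-library fit) and the hindstomach (1.43 ± 0.27, adjusted p = 0.0385 in the 8-library fit and 0.00589 in the 7-library fit). Slc6a8 stood at 45.6 and 26.1 FPKM in the colon, 51.9 and 63.6 in the intestine, 14.1 and 17.98 in the hindstomach, and 11.3 and 32.3 in the forestomach. Its forestomach replicate 2 lay within the colon range, and intestine minus hindstomach (1.79 ± 0.29) passed in the 7-library fit (adjusted p = 0.0105) and not in the 8-library fit (0.0973).

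The peptide carriers differed in level. PEPT1 (Slc15a1), which takes up dipeptides and tripeptides with protons at the brush border, stood at 26.5 and 12.9 FPKM in the colon, 26.8 and 33.96 in the intestine, 4.14 and 5.79 in the hindstomach, and 0.912 and 20.9 in the forestomach. The intestine and colon libraries lay above the hindstomach libraries, and forestomach replicate 2 lay between the colon libraries. Intestine minus hindstomach was 2.399 ± 0.35 in the 7-library fit (adjusted p = 0.00811; 0.225 in the 8-library fit). Hindstomach minus forestomach was -1.89 ± 0.43 in the 7-library fit (adjusted p = 0.0235), a value that rests on forestomach replicate 2 alone, since without that library it was 1.63 and in the 8-library fit -0.13. PEPT2 (Slc15a2), the carrier known from kidney, stood at 1.97 and 1.799 FPKM in the colon, 2.55 and 1.69 in the intestine, 0.634 and 0.474 in the hindstomach, and 0.186 and 0.2095 in the forestomach. It reached 1 FPKM in the colon and intestine alone, and so entered the tests through the tissues where it is high. At these low levels it was higher in the colon and the intestine than in the forestomach, by 1.27 ± 0.22 (adjusted p = 0.0184 in the 8-library fit and 0.0136 in the 7-library fit) and 1.37 ± 0.22 (adjusted p = 0.01 in the 8-library fit and 0.00842 in the 7-library fit).

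The 5 basolateral amino acid carriers had their highest means in the intestine. In the 8-library fit all 5 were higher in the intestine than in the forestomach, where 11.3% of all genes were higher. In that fit 3 of the 5 were higher in the intestine than in the hindstomach (2.55% of all genes). Between the colon and the intestine 0 of the 5 were called (0.38% of all genes). The common heavy chain 4F2hc (Slc3a2) stood at 91.3 and 52.9 FPKM in the colon, 108 and 129.5 in the intestine, 36.7 and 40.5 in the hindstomach, and 34.7 and 28.7 in the forestomach. Its light chain y+LAT1 (Slc7a7), which exports dibasic amino acids, stood at 57.2 and 25.8 FPKM in the colon, 72.6 and 90.6 in the intestine, 13.97 and 15.4 in the hindstomach, and 2.36 and 0.409 in the forestomach. The other light chain LAT2 (Slc7a8), a neutral amino acid exchanger, stood at 111 and 44.96 FPKM in the colon, 119 and 157 in the intestine, 25.3 and 29.9 in the hindstomach, and 16.2 and 0.271 in the forestomach. All 3 had their highest values in the intestine and their hindstomach values below both colon libraries, and Slc7a8 was high in forestomach replicate 1 and near 0 in replicate 2. Slc3a2 was higher in the intestine than in the hindstomach by 1.59 ± 0.29 (adjusted p = 0.0382 in the 8-library fit and 0.0121 in the 7-library fit). For Slc7a7 the difference was 2.39 ± 0.51 (adjusted p = 0.0553 in the 8-library fit and 0.00929 in the 7-library fit), past the threshold in the 7-library fit only. For Slc7a8 it was 2.27 ± 1.16 (adjusted p = 0.278 in the 8-library fit and 0.0156 in the 7-library fit), again past it in the 7-library fit only. Slc7a7 and Slc7a8 both lie on chromosome 14 (chr14:54369442-54417780, minus strand and chr14:54722209-54781946, minus strand, GRCm38). The aromatic amino acid carrier TAT1 (Slc16a10) stood at 43.04 and 19.5 FPKM in the colon, 57.7 and 66.9 in the intestine, 10.4 and 8.64 in the hindstomach, and 1.77 and 1.04 in the forestomach. The leucine-preferring carrier LAT4 (Slc43a2) stood at 27.6 and 9.47 FPKM in the colon, 30.4 and 43.8 in the intestine, 4.71 and 6.84 in the hindstomach, and 3.74 and 2.44 in the forestomach. In both genes the means ran down in the order intestine, colon, hindstomach and forestomach, with colon replicate 2 far below colon replicate 1. Intestine minus hindstomach was 2.59 ± 0.38 for Slc16a10 (adjusted p = 0.024 in the 8-library fit and 0.00732 in the 7-library fit). It was 2.49 ± 0.503 for Slc43a2 (adjusted p = 0.0491 in the 8-library fit and 0.0185 in the 7-library fit).

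**Figure D3:**
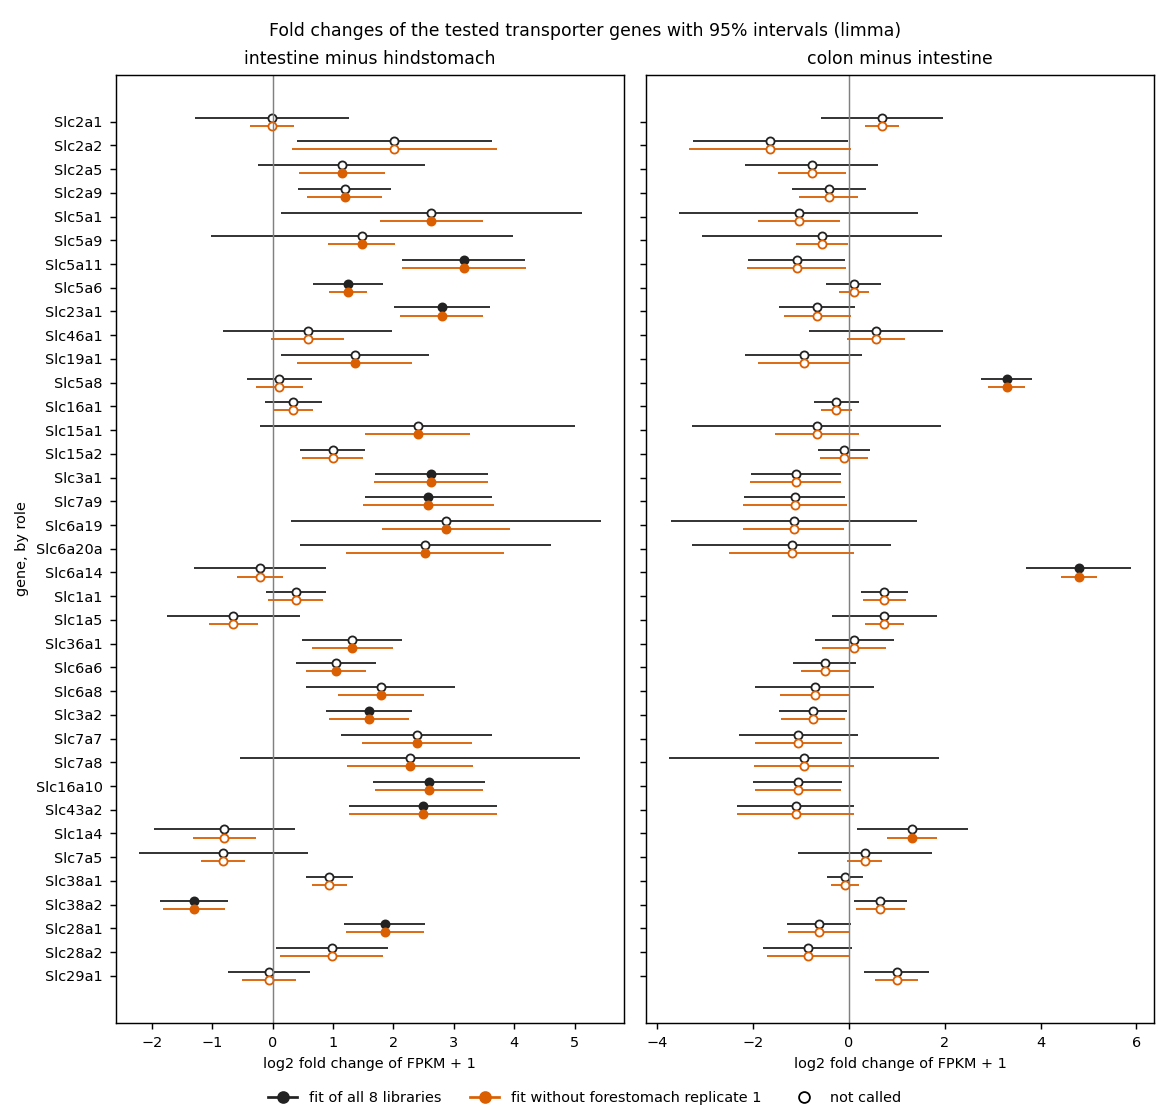
Log2 fold changes of FPKM + 1 with 95% intervals for the 37 tested transporter genes, intestine minus hindstomach on the left and colon minus intestine on the right, in the fit of all 8 libraries (black) and without forestomach replicate 1 (orange); filled circles were called. The interval of Slc5a1 on the left is narrower without that library (SE 0.34, against 1.02 with all 8), and on the right Slc5a8 (3.29) and Slc6a14 (4.80) stand apart from the other genes.

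Among the sugar and inositol carriers, the sodium-coupled Slc5a1 and Slc5a11 had the highest intestine means, followed by the facilitative Slc2a1. The sodium-coupled Slc5a9 was low there. SGLT1 (Slc5a1), the apical glucose and galactose carrier, stood at 97.99 and 47.03 FPKM in the colon, 126 and 159 in the intestine, 21.9 and 22.2 in the hindstomach, and 0.851 and 17.99 in the forestomach. The inositol carrier SMIT2 (Slc5a11) stood at 37.98 and 15.5 FPKM in the colon, 47.1 and 59.6 in the intestine, 4.38 and 5.73 in the hindstomach, and 0.176 and 0 in the forestomach. Both intestine libraries were above both colon libraries and these above both hindstomach libraries, and forestomach replicate 2 held Slc5a1 near the hindstomach level with Slc5a11 listed at 0. Slc5a11 was higher in the intestine than in the hindstomach by 3.17 ± 0.42 (adjusted p = 0.0194 in the 8-library fit and 0.00623 in the 7-library fit). Slc5a1 differed by 2.63 ± 0.34 in the 7-library fit (adjusted p = 0.00627), with an SE of 1.02 and an adjusted p of 0.178 in the 8-library fit. The mannose and glucose carrier SGLT4 (Slc5a9) stood at 2.84 and 1.57 FPKM in the colon, 3.5 and 3.78 in the intestine, 0.688 and 0.658 in the hindstomach, and 1.05 and 21.9 in the forestomach. Its highest value was in forestomach replicate 2, and the intestine libraries lay above the hindstomach and colon libraries. In the 7-library fit it was lower than in the forestomach in the colon (-2.86 ± 0.27, adjusted p = 0.00126), the intestine (-2.304 ± 0.27, 0.00199) and the hindstomach (-3.77 ± 0.27, 0.000757), and in the 8-library fit none of the 3 passed. Without forestomach replicate 2 the colon and intestine differences were 0.62 and 1.18, so these directions rest on that library.

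The facilitative sugar carriers were mostly low, apart from GLUT1. GLUT2 (Slc2a2), the basolateral glucose and fructose carrier, stood at 10.8 and 1.61 FPKM in the colon, 13.8 and 19.2 in the intestine, 3.06 and 3.51 in the hindstomach, and 0 and 0 in the forestomach. Its colon replicate 2 lay below both hindstomach libraries, and it was called higher in the intestine than in the forestomach (adjusted p = 0.00977 in the 8-library fit and 0.0123 in the 7-library fit), where it was listed at 0, so that no fold is given. GLUT5 (Slc2a5), the apical fructose carrier, stood at 1.497 and 0.596 FPKM in the colon, 1.93 and 3.01 in the intestine, 0.613 and 0.501 in the hindstomach, and 2.298 and 0.0105 in the forestomach. The urate carrier Slc2a9 reached 1 FPKM in the colon and intestine alone, and so entered the tests through the tissues where it is high. It stood at 2.47 and 1.22 FPKM in the colon, 2.55 and 2.91 in the intestine, 0.696 and 0.564 in the hindstomach, and 0.277 and 0.942 in the forestomach. Intestine libraries were above hindstomach libraries for both, and the difference passed in the 7-library fit only, at 1.14 ± 0.28 for Slc2a5 (adjusted p = 0.0325) and 1.19 ± 0.25 for Slc2a9 (0.0211). GLUT1 (Slc2a1), which supplies glucose to most fetal cells, stood at 60.3 and 75.5 FPKM in the colon, 42.8 and 39.98 in the intestine, 39.9 and 43.7 in the hindstomach, and 23.9 and 80.8 in the forestomach. Intestine and hindstomach values overlapped, colon values lay above both, and Slc2a1 was called in none of the comparisons in either fit. Its intestine minus hindstomach difference was -0.01, with a 95% interval from -1.29 to 1.26 in the 8-library fit. GLUT3 (Slc2a3), the neuronal glucose carrier, reached 1 FPKM only in colon replicate 2, at 2.72 FPKM. That library also held the highest summed level of the 5 neural and glial markers (58.1 FPKM, against 2.06 to 15.98 in the other 7). The 5 endothelium markers (54.9 FPKM) and the 7 erythroid markers (14.5 FPKM) had their highest sums there too. Their part in the Slc2a3 value was not tested.

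Of the vitamin carriers, the ascorbate carrier SVCT1 (Slc23a1) differed most between intestine and hindstomach. Slc23a1 stood at 8.79 and 4.95 FPKM in the colon, 9.57 and 12.7 in the intestine, 0.679 and 0.7899 in the hindstomach, and 0.0327 and 0.443 in the forestomach. Both hindstomach and both forestomach libraries were under 1 FPKM, so that Slc23a1 entered the tests through the colon and intestine, where it is high. It was higher in the intestine than in the hindstomach by 2.798 ± 0.33 (adjusted p = 0.0147 in the 8-library fit and 0.0033 in the 7-library fit) and in the colon than in the hindstomach by 2.14 ± 0.33 (adjusted p = 0.0421 in the 8-library fit and 0.0102 in the 7-library fit). The biotin and pantothenate carrier SMVT (Slc5a6) stood at 16.1 and 13.8 FPKM in the colon, 13.6 and 14 in the intestine, 5.35 and 5.14 in the hindstomach, and 1.88 and 3.22 in the forestomach. Colon and intestine values overlapped and lay above the hindstomach, and the intestine was higher than the hindstomach by 1.25 ± 0.24 (adjusted p = 0.0416 in the 8-library fit and 0.00363 in the 7-library fit). The reduced folate carrier (Slc19a1) stood at 20.4 and 8.34 FPKM in the colon, 23.7 and 28.9 in the intestine, 9.73 and 9.49 in the hindstomach, and 1.31 and 4.03 in the forestomach. The proton-coupled folate carrier PCFT (Slc46a1) stood at 8.87 and 7.05 FPKM in the colon, 3.93 and 6.39 in the intestine, 2.72 and 3.397 in the hindstomach, and 1.47 and 7.49 in the forestomach. Slc19a1 was higher in the intestine than in the forestomach by 2.996 ± 0.501 (adjusted p = 0.0111 in the 8-library fit and 0.0103 in the 7-library fit). Slc46a1 was called in the 7-library fit only, higher in the colon than in the hindstomach by 1.14 ± 0.24 (adjusted p = 0.041) and lower in the hindstomach than in the forestomach by a log2 fold change of -1.07 ± 0.29 (adjusted p = 0.0416), which turned to 0.71 without forestomach replicate 2.

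Of the nucleoside carriers, the sodium-coupled CNT1 (Slc28a1, for pyrimidine nucleosides) stood at 3.28 and 1.81 FPKM in the colon, 5.02 and 3.71 in the intestine, 0.5497 and 0.394 in the hindstomach, and 0.00598 and 0 in the forestomach. CNT2 (Slc28a2, for purine nucleosides) stood at 14.7 and 6.46 FPKM in the colon, 18.9 and 18.5 in the intestine, 8.69 and 9.34 in the hindstomach, and 0.643 and 0.149 in the forestomach. Both were highest in the intestine and under 1 FPKM in the forestomach. Slc28a1 reached 1 FPKM in the colon and intestine alone, and so entered the tests through the tissues where it is high. Slc28a1 was higher in the intestine than in the hindstomach by 1.86 ± 0.27 (adjusted p = 0.024 in the 8-library fit and 0.00745 in the 7-library fit), and Slc28a2 was higher in the hindstomach than in the forestomach by 2.87 ± 0.38 (adjusted p = 0.0161 in the 8-library fit and 0.00473 in the 7-library fit). CNT3 (Slc28a3), the carrier of both kinds, was at 0.311 FPKM or less in 7 libraries and at 7.56 FPKM in forestomach replicate 2. The equilibrative carrier ENT1 (Slc29a1) stood at 12.5 and 16.1 FPKM in the colon, 7.51 and 5.84 in the intestine, 6.71 and 7.23 in the hindstomach, and 5.91 and 3.44 in the forestomach. Both colon libraries lay above all others, and the colon was higher than the forestomach by 1.45 ± 0.28 (adjusted p = 0.0243 in the 8-library fit and 0.00321 in the 7-library fit).

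Slc5a8 and Slc6a14 were the only 2 of the 40 genes called higher in the colon than in each other tissue in the 8-library fit. The share of all genes with that pattern was not counted. SMCT1 (Slc5a8, chr10:88885992-88929515, plus strand, GRCm38), a sodium-coupled carrier of lactate and short-chain fatty acids, stood at 9.77 and 9.62 FPKM in the colon, 0.134 and 0.0534 in the intestine, 0.0164 and 0.0109 in the hindstomach, and 0.404 and 0.0573 in the forestomach. The broad sodium- and chloride-coupled amino acid carrier Slc6a14 (chrX:21714896-21742355, plus strand) stood at 29.6 and 28.97 FPKM in the colon, 0.142 and 0.0389 in the intestine, 0.348 and 0.186 in the hindstomach, and 0.696 and 3.54 in the forestomach. For both genes the colon libraries nearly matched each other and no other library overlapped them. Slc5a8 reached 1 FPKM in the colon alone and so entered the test through the tissue where it is high, and its test results describe a gene that had to differ. Slc6a14 reached 1 FPKM in both colon libraries and in forestomach replicate 2. Slc5a8 was higher in the colon than in the intestine by 3.29 ± 0.22 (adjusted p = 0.00886 in the 8-library fit and 0.00347 in the 7-library fit), and than in the hindstomach by 3.400 ± 0.22 (adjusted p = 0.00393 in the 8-library fit and 0.000994 in the 7-library fit). Slc6a14 was higher in the colon than in the intestine by 4.797 ± 0.45 (adjusted p = 0.0221 in the 8-library fit and 0.00198 in the 7-library fit), and than in the hindstomach by 4.58 ± 0.45 (adjusted p = 0.0114 in the 8-library fit and 0.000893 in the 7-library fit). In the 8-library fit the adjusted p for Slc5a8 colon minus intestine was 0.0625 with a pseudocount of 0.1 and 0.0729 with a minimum of 5 FPKM. For Slc6a14 colon minus intestine it was 0.0676 with no filter on low values. In the 7-library fit Slc6a14 was also lower in the intestine and in the hindstomach than in the forestomach, with log2 fold changes of -2.06 ± 0.19 and -1.84 ± 0.19 (adjusted p = 0.000901 and 0.00194). The 8 mesenchyme markers, all above 1 FPKM in every tissue's mean, summed to 497 and 1178 FPKM in the colon against 263 and 53.6 in the intestine. Their part in the Slc5a8 and Slc6a14 values was not tested. The 5 colonocyte markers summed to 70.5 and 42.0 FPKM in the colon and 49.4 and 71.5 FPKM in the intestine, where nearly all of it came from the water channel gene Aqp8, which stood at 47.02 and 11.4 FPKM in the colon and 48.3 and 70.7 in the intestine. In the same list Hoxd13 stood at 9.95 and 14.2 FPKM in the colon and 0.01996 and 0.00673 in the intestine, Car1 at 3.299 and 2.53 in the colon and 0 and 0 in the intestine, and Car4 under 0.1 FPKM in both. MCT1 (Slc16a1), the widely used lactate carrier, stood at 31.6 and 26.1 FPKM in the colon, 35.6 and 33.6 in the intestine, 28.2 and 25.99 in the hindstomach, and 21.8 and 27.9 in the forestomach. Its 8 values lay between 21.8 and 35.6 FPKM, and it was called in none of the comparisons.

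The promoter windows of the colon pair, of the same length and source (chr10:88885742-88886041 and chrX:21714650-21714949, plus strand), are shown for comparison with the windows of Slc3a1 and Slc7a9.
Slc5a8: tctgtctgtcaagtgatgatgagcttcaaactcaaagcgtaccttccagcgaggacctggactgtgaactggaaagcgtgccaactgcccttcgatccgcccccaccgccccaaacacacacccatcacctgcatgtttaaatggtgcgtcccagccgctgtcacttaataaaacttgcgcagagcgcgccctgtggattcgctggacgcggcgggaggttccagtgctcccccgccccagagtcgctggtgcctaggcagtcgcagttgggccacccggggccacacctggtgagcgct
Slc6a14: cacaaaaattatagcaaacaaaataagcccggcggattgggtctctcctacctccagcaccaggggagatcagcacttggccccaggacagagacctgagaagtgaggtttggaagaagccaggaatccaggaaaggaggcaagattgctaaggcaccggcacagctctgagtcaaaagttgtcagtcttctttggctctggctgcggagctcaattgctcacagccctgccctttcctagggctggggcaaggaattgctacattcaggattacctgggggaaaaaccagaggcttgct
Neither window holds any of the 4 motifs, so both are printed without capitals. This says only that these letters are not in these windows.

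The carriers that feed cells in general had mixed patterns. SNAT1 (Slc38a1) and SNAT2 (Slc38a2), sodium-coupled carriers of small neutral amino acids such as glutamine and alanine, both lie on chromosome 15 (chr15:96571418-96642913, minus strand and chr15:96687392-96699730, minus strand). Slc38a1 stood at 46.3 and 41.5 FPKM in the colon, 47.3 and 45.8 in the intestine, 24.9 and 22.7 in the hindstomach, and 5.41 and 5.61 in the forestomach. Slc38a2 stood at 25.7 and 35.1 FPKM in the colon, 19.4 and 17.98 in the intestine, 41.2 and 55.2 in the hindstomach, and 41.6 and 44.6 in the forestomach. Slc38a1 was high in colon and intestine and low in the forestomach, whereas Slc38a2 had its lowest values in the intestine. Slc38a2 was the 1 gene lower in the intestine than in the hindstomach, with a log2 fold change of -1.31 ± 0.23 (adjusted p = 0.0342 in the 8-library fit and 0.0102 in the 7-library fit). With median-of-ratios scaling it was -0.99, just under 2-fold. Slc38a1 was higher in the hindstomach than in the forestomach by 1.93 ± 0.16 (adjusted p = 0.00371 in the 8-library fit and 0.000782 in the 7-library fit) and in the intestine than in the forestomach by 2.87 ± 0.16 (adjusted p = 0.000334 in the 8-library fit and 0.000197 in the 7-library fit). The small neutral amino acid carrier ASCT1 (Slc1a4) stood at 5.94 and 8.84 FPKM in the colon, 2.61 and 2.02 in the intestine, 4.54 and 5.004 in the hindstomach, and 6.54 and 19.6 in the forestomach. It was lowest in the intestine and highest in forestomach replicate 2, and lower in the intestine than in the forestomach, with a log2 fold change of -1.91 ± 0.48 (adjusted p = 0.0383 in the 8-library fit and 0.00112 in the 7-library fit). In the 7-library fit Slc1a4 was higher in the colon than in the intestine (1.32 ± 0.21, adjusted p = 0.0422; 0.332 in the 8-library fit). LAT1 (Slc7a5), the large neutral amino acid carrier of growing cells, stood at 14.5 and 14.7 FPKM in the colon, 13.03 and 10.1 in the intestine, 21.8 and 20.2 in the hindstomach, and 10.4 and 41.5 in the forestomach. Its hindstomach libraries lay above the colon and intestine libraries, forestomach replicate 1 lay within the intestine range, and forestomach replicate 2 lay above all other libraries. Colon minus forestomach was -1.44 ± 0.18 and intestine minus forestomach -1.77 ± 0.18 in the 7-library fit (adjusted p = 0.00311 and 0.00127), and without forestomach replicate 2 they were 0.46 and 0.13. The cystine and glutamate exchanger xCT (Slc7a11) reached 1 FPKM only in forestomach replicate 2, at 1.06 FPKM.

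Levels relative to the intestine were then set out for the 20 genes that were highest in the intestine and averaged at least 10 FPKM there, as shown in the plot of percent of the intestine mean. Because the genes were picked by that mean, their lower means in the other tissues were fixed by the choice. Only the size of the gap and the spread between replicates are described here. Their median was 76.2% in colon replicate 1, from 65.2% for Slc2a2 to 99.5% for Slc38a1, and 32.1% in colon replicate 2, from 9.76% for Slc2a2 to 89.3% for Slc38a1. In the hindstomach it was 16.9% in replicate 1 and 19% in replicate 2, from 6.08% for Slc23a1 to 81.5% for Slc16a1 in replicate 1. The 2 hindstomach libraries were thus alike, whereas colon replicate 1 stood above colon replicate 2 by a median factor of 2.24, from 1.11 for Slc38a1 to 6.68 for Slc2a2. The 7 enterocyte markers, which were not picked by that rule, were set beside them. Their median was 66.1% of the intestine mean in colon replicate 1, 19.6% in colon replicate 2, 17.5% in hindstomach replicate 1 and 17.4% in hindstomach replicate 2. Their colon 1 to colon 2 ratio had a median of 3.18, but the transcription factor genes Cdx1 (138 and 134 FPKM) and Cdx2 (112 and 91.1 FPKM) were nearly level in the 2 colon libraries, and Cdx1 stood at 168% and 163% of its intestine mean there. In the forestomach the transporter genes' median was 3.22% in replicate 1 and 5.28% in replicate 2, and the markers' was 0.0532% and 0.00968%. All 7 averaged at least 1 FPKM in the hindstomach, where they summed to 3448 and 3948 FPKM, against 18220 and 26931 in the intestine. The part of the marker level in the transporter levels was not tested. Across replicates, 14 of the 40 genes were at least 2-fold apart in the colon on the log2(FPKM + 1) scale, 0 in the intestine, 0 in the hindstomach and 17 in the forestomach, and the median absolute log2 difference was 0.62, 0.27, 0.13 and 0.62. Over all genes tested it was 0.27, 0.14, 0.18 and 0.67 in the same order.

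**Figure D4:**
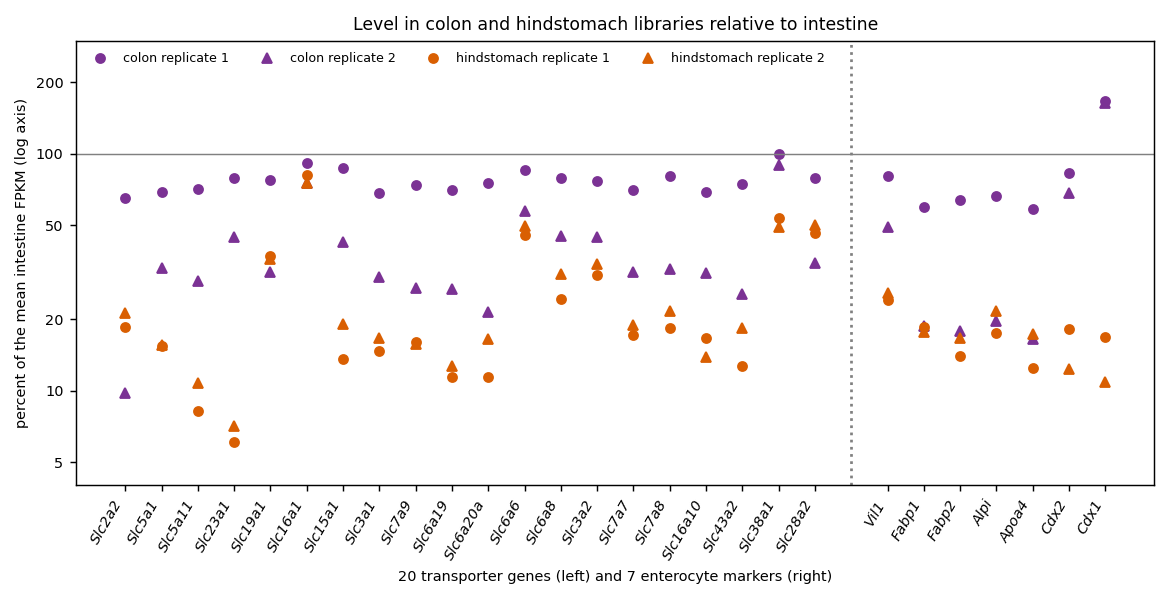
Level of the 20 transporter genes highest in the intestine (left of the dotted line) and of 7 enterocyte markers (right) in each colon and hindstomach library, as a percent of the mean intestine FPKM on a log axis. Colon replicate 1 lies above colon replicate 2 for every gene shown, and the hindstomach libraries spread around medians of 16.9% and 19% with Slc16a1 highest and Slc23a1 lowest.

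The 2 forestomach libraries differed in the level of many carriers, as the plot of the forestomach pair shows. Of 28 genes at 1 FPKM or more in either of them, 8 were at least 4-fold higher and 4 at least 4-fold lower in replicate 2. The share of all genes that far apart was not counted. The median absolute log2 difference between these libraries was 0.62 for the transporter genes and 0.67 over all genes tested. By that measure the transporter genes were no further apart than the whole table. The apical carriers Slc5a1, Slc5a9, Slc15a1 and Slc6a19 were 21.2, 20.8, 22.9 and 22.9 times as high in replicate 2 as in replicate 1, and Slc28a3 24.3 times. Of the basolateral carriers, Slc7a8 was 59.9 times as high in replicate 1, and of the others Slc6a20a 33.0 times and Slc2a5 218 times. Replicate 2, with these apical carriers at 17.1 to 21.9 FPKM, had the enterocyte markers Vil1 at 1.19, Fabp1 at 0.584 and Cdx2 at 0 FPKM, and Slc3a1 and Slc7a9 at 0.210 and 0 FPKM. Beside the gastric and squamous sums given above, mesenchyme markers summed to 1717 FPKM in replicate 1 and 83.7 FPKM in replicate 2, mostly from Acta2 (1327 and 9.86 FPKM) and Dcn (212 and 61.4 FPKM). Their part in these differences was not tested, and a difference between 2 libraries has no replicate check. Slc38a1, Slc38a2 and Slc3a2 were alike in both libraries.

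**Figure D5:**
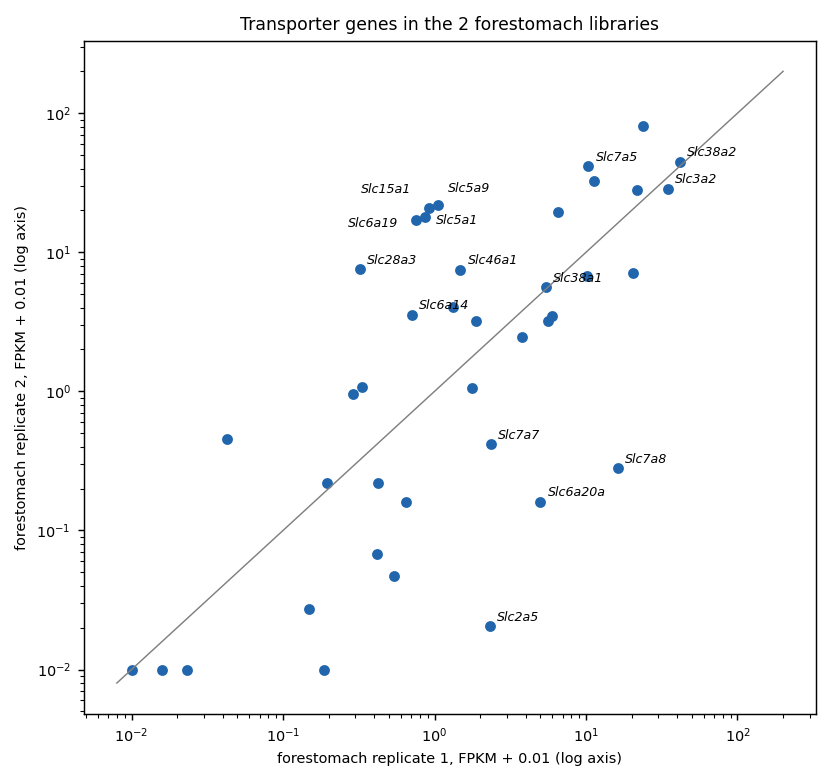
FPKM + 0.01 of the 40 transporter genes in forestomach replicate 1 (x axis) and replicate 2 (y axis), both on log axes, with a grey line at equal values. Slc5a1, Slc5a9, Slc15a1, Slc6a19 and Slc28a3 lie above the line by 20.8-fold to 24.3-fold, Slc7a8 and Slc2a5 lie far below it, and Slc38a1 and Slc38a2 lie near it.

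Another 86 gene symbols with the prefixes of the same solute carrier families are in the table. Of these, 49 were tested in the 8-library fit and 46 in the 7-library fit. They were picked by prefix, and so include opposite-strand genes and a pseudogene, such as Slc6a19os, Slc7a6os and Slc2a4rg-ps, which are not carriers. Slc6a19os is among the genes counted as higher in the intestine in the 7-library fit, against the hindstomach and against the forestomach. In the intestine against the hindstomach 4 were higher and 1 was lower in the 8-library fit, against 2.55% and 2.47% of all genes, and 13 were higher and 8 lower in the 7-library fit, against 7.42% and 9.96%. The 5 were the lysosomal carrier gene Slc46a3, Slc38a7, the serotonin carrier Slc6a4 and Slc5a4b, all higher, and Slc7a6, lower. Slc5a4b reached 1 FPKM in intestine and colon libraries alone, and so entered the tests through the tissues where it is high. Slc46a3 stood at 51.3 and 17.7 FPKM in the colon, 60.2 and 93.1 in the intestine, 8.99 and 13.8 in the hindstomach, and 0.925 and 1.85 in the forestomach. Slc6a4 stood at 10.7 and 4.97 FPKM in the colon, 16.4 and 17.3 in the intestine, 2.79 and 1.86 in the hindstomach, and 1.16 and 0.0396 in the forestomach. In both the means ran down in the order intestine, colon, hindstomach and forestomach. In the intestine against the forestomach 16 were higher and 2 lower in the 8-library fit (11.3% and 5.78% of all genes), and 19 and 3 in the 7-library fit (16.6% and 11.3%). The 8-library calls were led in mean FPKM by Slc46a3, Slc38a7, Slc16a6, Slc16a13, Slc7a4 and Slc6a4 among the higher, with Slc16a9 and Slc46a2 lower. In the colon against the forestomach 12 were higher in the 8-library fit (9.2% of all genes), led by Slc46a3, Slc38a10, Slc38a7, Slc6a4, Slc16a12 and Slc38a6, and Slc46a2 was the 1 lower gene (2.41%), whereas the 7-library fit had 17 higher and 2 lower (19.1% and 6.44%). Slc46a2 was also the 1 gene called between the hindstomach and the forestomach in the 8-library fit (lower, 1.33% of all genes), and in the 7-library fit, where it was not tested, 14 other genes were higher (14.3%). Slc46a2 reached 1 FPKM in the forestomach alone, and so entered these tests through the tissue where it is high. Between the colon and the hindstomach Slc2a13, a proton-coupled inositol carrier, was the 1 gene called in the 8-library fit, higher in the colon, and it reached 1 FPKM in the colon alone. The 7-library fit of that comparison had 2 higher and 9 lower in the colon, against 4.49% and 3.1% of all genes. The median log2 fold change of the 49 for the intestine minus the hindstomach was -0.12, against 1.32 for the 37 listed genes. The listed genes were chosen with earlier results of these data known. That choice may have set part of the gap, so the 49 are no neutral control.

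Genes that work with the carriers were also counted. Of 18 tested partner genes, 4 were higher and 1 was lower in the intestine than in the hindstomach in the 8-library fit, and 10 were higher and 2 lower in the 7-library fit, against 2.55% and 2.47% of all genes in the first fit and 7.42% and 9.96% in the second. Against the forestomach, 11 were higher in the intestine (11.3% of all genes), 8 in the colon (9.2%) and 6 in the hindstomach (4.26%) in the 8-library fit, and 14 (16.6%), 13 (19.1%) and 12 (14.3%) in the 7-library fit. Those higher in the intestine than in the hindstomach were the folate receptor gene Folr1, the scaffold gene Pdzk1, the fructose pathway gene Tkfc and the glucose-6-phosphate carrier Slc37a4, and the lower one was Emb, a chaperone of monocarboxylate carriers. Folr1 stood at 143 and 103 FPKM in the colon, 179 and 195 in the intestine, 15.3 and 14.8 in the hindstomach, and 0.825 and 0.00781 in the forestomach. Emb stood at 1.35 and 3.56 FPKM in the colon, 1.88 and 0.563 in the intestine, 14.96 and 10.6 in the hindstomach, and 4.15 and 7.92 in the forestomach. Folr1 had both intestine libraries above the colon libraries and these above the hindstomach libraries, and Emb had its highest values in the hindstomach. Folr1 was higher in the intestine than in the hindstomach by 3.55 ± 0.32 (adjusted p = 0.00895 in the 8-library fit and 0.001 in the 7-library fit), and Emb differed by -2.68 ± 0.49 (0.038 and 0.0108). Of 9 genes of the amino acid response, 2 were lower in the intestine than in the hindstomach in the 8-library fit (2.47% of all genes), and 1 was higher and 3 were lower in the 7-library fit (7.42% and 9.96%). The asparagine synthetase gene Asns, one of the 2, stood at 19.2 and 19.1 FPKM in the colon, 21.8 and 16.4 in the intestine, 71.3 and 63.3 in the hindstomach, and 46.97 and 30.7 in the forestomach, and its difference was -1.77 ± 0.26 (adjusted p = 0.0227 and 0.00267). Of 8 tested glycolysis genes 1 was higher and 1 lower in the 8-library fit, Pfkp and the hexokinase gene Hk1 (2.55% and 2.47% of all genes), and 1 was higher and 2 were lower in the 7-library fit. Hk1 stood at 9.73 and 14.4 FPKM in the colon, 1.54 and 0.564 in the intestine, 11.5 and 18.2 in the hindstomach, and 20.6 and 20.1 in the forestomach. Like Slc38a2 and Slc1a4, Hk1 had its lowest values in the intestine, and it differed by -2.96 ± 0.35 from the hindstomach (adjusted p = 0.0147 and 0.00472).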

How the data were processed

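The deposited table gives FPKM per gene symbol and library, as the authors computed it. Reads were aligned with STAR 2.4.2a to the mm10 (GRCm38) genome, per the submitters' processing notes. The FPKM program, its annotation and its use of strand were not given in the sources used here. Reads of overlapping or similar genes may be split uncertainly. Of the table's columns, 8 match labelled E16.5 libraries of this design, and 4 others with no matching sample were not used. Depth per library is not stated. The steps of the lowest values put 4 libraries at 0.426 to 0.495 of the deepest and the other 4 at 0.853 to 1, uncertain by a factor of 2. Summed FPKM was 328490 to 378497 per library and 545227 in forestomach replicate 1.

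The values were tested with limma 3.58.1 in R 4.3.3 on log2(FPKM + 1), with the 4 tissues as groups sharing 1 estimate of the spread, over genes that reached 1 FPKM in 2 or more libraries. Adjustment was by Benjamini-Hochberg over all genes tested within a comparison, and calls needed an adjusted p under 0.05 and at least a 2-fold change. Fold changes understate the change of low genes because of the pseudocount of 1. The fitting code was run on simulated data in which the noise of a gene was independent and equal in all libraries. The real libraries did not spread equally, so that run does not show how reliable the calls are. Values per library were given for genes called in at least 1 comparison in either fit or reaching 10 FPKM in any library, and up to 6 other family genes per comparison and direction by mean FPKM. Of the latter, those called in the 8-library fit were named. The genes and lists were chosen with earlier results of these data known. Alternatives were the pseudocount, the filter, the scaling, the libraries in the fit, the replicate number as a block and leaving out each library. Promoter windows came from RefSeq and gene positions from GENCODE M21. Python 3.11.15 and matplotlib 3.10.9 drew the figures.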

Additional observations from a re-analysis of the deposited data

How the results depend on the processing

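The counts of called transporter genes depended on the processing. For the hindstomach against the forestomach (8 called) they were 4 with a pseudocount of 5, with no filter, with median-of-ratios scaling and with the replicate block, and 2 in a fit of the 2 tissues alone. For the intestine against the forestomach (23) the fit of the 2 tissues alone gave 14 and the block 20. For the colon against the forestomach (19) quantile normalization gave 12, the 2 tissues alone 4 and the block 15. For the intestine against the hindstomach (10) no filter gave 1, the 2 tissues alone 24 and the block 4. For the colon against the hindstomach (3) the 2 tissues alone gave 8 and the block 2. For the colon against the intestine (2) a pseudocount of 0.1, no filter, a minimum of 5 FPKM and the block each gave 1. A fit with no forestomach library, chosen after seeing the data, gave 23 genes for the intestine against the hindstomach, 11 for the colon against the hindstomach and 3 for the colon against the intestine. Leaving out 1 library gave 1 to 15, 11 to 28, 9 to 27, 0 to 23, 0 to 11 and 0 to 3 genes in the same order of comparisons. The share of all genes called was given above for the main fits only. It is not given for the other settings or left-out libraries, here or above. A rise or fall in these counts may therefore be general and not particular to the transporter genes. The cause of these moves was not tested. The replicate numbers were not used as pairs in the main fits, since the labels do not say what they mark. The deviations of same-numbered libraries correlated from -0.58 to 0.27. With 1 difference per tissue, these values cannot show whether the samples were paired.

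Directions turned in 11 cases, all against the forestomach. Without forestomach replicate 2 the log2 fold changes were 0.71 for Slc46a1 and 1.63 for Slc15a1 (hindstomach), 1.18 for Slc5a9 and 0.13 for Slc7a5 (intestine), and 0.62 for Slc5a9, 0.13 for Slc1a4 and 0.46 for Slc7a5 (colon). Without forestomach replicate 1 they were -1.07 for Slc46a1 and -1.89 for Slc15a1 (hindstomach), -2.30 for Slc5a9 and -1.77 for Slc7a5 (intestine), and -2.86 for Slc5a9, -1.32 for Slc1a4 and -1.44 for Slc7a5 (colon). Hindstomach minus forestomach also turned to 0.016 for Slc46a1 with the same summed FPKM in every library, and for Slc15a1 to 0.12 with a pseudocount of 0.1, 0.030 with the same summed FPKM and 0.070 without hindstomach replicate 1. Of the other gene and setting pairs checked, 1486 kept direction and call, 117 gained the call and 301 lost it. Among the lost calls, Slc38a2 was not called for the intestine against the hindstomach with no filter, median-of-ratios scaling, the same summed FPKM or the block. With 2 libraries a tissue, 1 of them standing apart, a missed call does not show that levels were alike.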
